A study of Mus musculus with 27 samples.

Results

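The genes described are those of respiratory complex I: every non-control probe of the mouse array whose gene name starts with Nduf. The rule took 53 probes for 42 genes, of 55681 probes for 35527 gene names on the array. They were 46 probes for 36 subunit genes, 5 probes for the 4 assembly factor genes Ndufaf1 to Ndufaf4, and 2 probes for Ndufa4 and Ndufa4l2, which carry the family name but belong with complex IV and were counted apart. The study isolated single myofibers from the tibialis anterior muscle with collagenase, amplified the RNA of each in 18 cycles and hybridized it in 1 colour to its own Agilent array. The Wt group held 8 myofibers from 2 mice, the Smn1ΔSkm group 12 from 3 mice, and the Smn1ΔSkm+AFS group 7 from 2 mice. These are the labels' numbers. The study's text disagrees with them, and with itself, on the myofibers and mice of the treated group, so the n and the averaging by mouse in each comparison with that group rest on the labels. All mice were male, and the labels give 3 months as the age of each, while the study's methods place the injection of the cells at that age and the collection of muscle a month later. Smn1ΔSkm mice carry Smn alleles with a loxP-flanked exon and a Cre driven by the human α-skeletal actin promoter, so that the gene is lost in skeletal muscle fibers and kept elsewhere. Smn1ΔSkm+AFS mice are of the same genotype and received amniotic fluid stem (AFS) cells, GFP-positive and c-kit-positive, into the tail vein.

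Complex I, NADH:ubiquinone oxidoreductase, is the entry point of electrons from NADH into the respiratory chain and pumps protons across the inner mitochondrial membrane. It is an L-shaped complex: the N module at the tip of its matrix arm oxidizes NADH, the Q module passes the electrons to ubiquinone, and the proximal and distal parts of the membrane arm hold the proton pumps. The pump subunits themselves are encoded by mitochondrial DNA, whereas the subunits described here and the assembly factors that join them are encoded in the nucleus. Skeletal muscle depends on the complex for sustained work, and loss of its subunits or assembly factors is a known cause of mitochondrial disease.

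Levels are given on a log2 scale relative to the 75th percentile of each array. A difference is between means of mice, with the myofibers of a mouse averaged first, its standard error (SE) comes from limma over all 7 mice, and genes are said to be called where the p adjusted over all 16648 genes tested is under 0.05. Of the 53 probes, 51 passed the filter of values on 75% of the arrays. The probes that did not pass, of Ndufa3 and Ndufv3, had a second probe each that did, so all 42 genes were tested, each through its brightest probe. Values were present for 23871 to 34012 probes on a Wt array, 23183 to 37595 on a Smn1ΔSkm array and 25887 to 30498 on a Smn1ΔSkm+AFS array, and the number of arrays limits the precision. Of the 2 probes for Smn1, one lay at 1.86 and 1.84 in the Wt mice, at -0.07, 0.20 and 0.36 in the Smn1ΔSkm mice and at -0.34 and 0.82 in the Smn1ΔSkm+AFS mice, a difference between Smn1ΔSkm and Wt of -1.68 (SE 0.368, limma, adjusted p = 0.0201 over all probes). The other differed by 0.19 (adjusted p = 0.715), and their position relative to the loxP-flanked exon was not checked here. All 8 Wt arrays lay on 1 slide of their own and were scanned on a day of their own, so that in every comparison with Wt the slide, the scan day and the group cannot be told apart.

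Transcripts of complex I subunits lay lower in Smn1ΔSkm than in Wt myofibers in 34 of 36 genes, with a median difference of -0.60. Over all genes tested, 54.4% lay lower and the median difference was -0.11. With only probes that had values on every array, the medians were -0.60 over the subunits and -0.24 over all genes. Of the 36 subunits, 8 were called, each lower in Smn1ΔSkm, which is 22.2% of them. Across all genes 22.0% were called, 13.9% lower and 8.04% higher. The share of subunits called is thus near that of all genes. Every Smn1ΔSkm mouse lay below both Wt mice for 31 subunits (86.1%), an ordering that 33.2% of all genes showed. The called subunits were Ndufs5, Ndufb4, Ndufa11, Ndufa7, Ndufa6, Ndufa12, Ndufa3 and Ndufab1, all of them supernumerary subunits. Supernumerary subunits take no part in the redox reaction, and stabilize and help assemble the complex. Of the 7 core subunits encoded in the nucleus, which bind the flavin and the iron-sulfur clusters or the quinone, 0 were called (22.0% of all genes). In so short a list this count does not set the core subunits apart. Of the 7, 6 lay lower, and 2 had an unadjusted p under 0.05 in limma, as did 16 of the 36 subunits (39.4% of all genes). The median difference of the core subunits was -0.45.

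**Figure D1:**
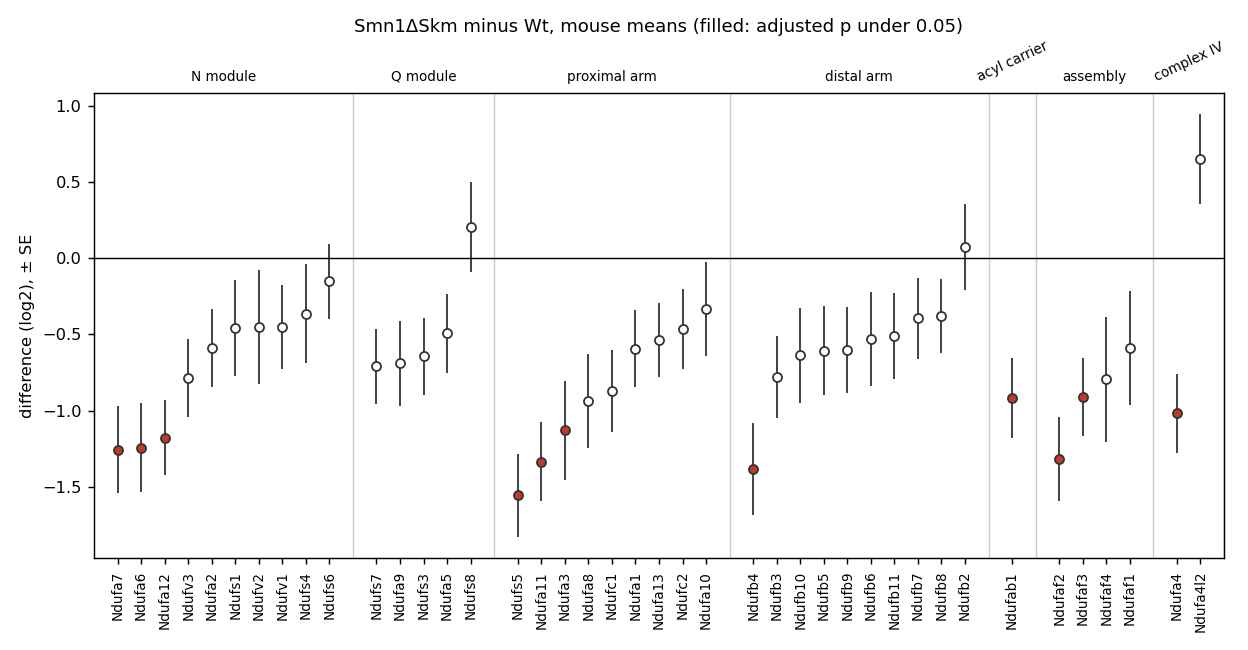
Difference of each gene between Smn1ΔSkm and Wt (vertical axis, log2, points with standard errors from limma, means of 3 and 2 mice), with genes on the horizontal axis grouped by their place in the complex and filled points for an adjusted p under 0.05. Of the 35 subunits drawn 33 lie below 0, the 8 called ones between -1.56 and -0.92, and Ndufs8 and Ndufb2 lie above 0.

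In the N module, Ndufa7, Ndufa6 and Ndufa12 fell (30.0% of its 10 members, beside 13.9% of all genes called lower). The other 7 members did not pass the test. The modules are lists of 6 to 10 genes, too short for their counts of calls to tell them apart. Ndufa7 lay at 6.14 and 6.16 in the Wt mice and at 4.51, 5.15 and 5.02 in the Smn1ΔSkm mice, a difference of -1.26 (SE 0.285, limma, adjusted p = 0.0219). Ndufa6, an LYR-motif protein that binds the acyl carrier protein, lay at 6.25 and 6.35 in Wt and at 4.73, 5.28 and 5.17 in Smn1ΔSkm, and differed by -1.24 (SE 0.294, limma, adjusted p = 0.0243). Ndufa12 is the mature subunit that takes the place of its paralog, the assembly factor Ndufaf2, late in assembly. Its levels were 6.70 and 6.59 in Wt and 5.39, 5.52 and 5.50 in Smn1ΔSkm, a difference of -1.18 (SE 0.247, limma, adjusted p = 0.0183). Each of the 12 Smn1ΔSkm myofibers lay below the lowest Wt myofiber for Ndufa12, at 4.86 to 5.90 with a median of 5.54, against 6.20 to 6.96 with a median of 6.63. The share of all genes whose single myofibers separate in this way was not counted, here or for the genes below. The members not called ranged from -0.79 (Ndufv3) to -0.15 (Ndufs6), and the NADH-binding core subunit Ndufv1 differed by -0.45 (adjusted p = 0.253).

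Of the 6 members of the Q module 0 were called and 3 had an unadjusted p under 0.05 in limma (22.0% and 39.4% of all genes). The core subunit Ndufs7, which holds the last iron-sulfur cluster before ubiquinone, had the widest difference in the module. It lay at 7.16 and 7.22 in the Wt mice and at 6.36, 6.53 and 6.56 in the Smn1ΔSkm mice, a difference of -0.71 (SE 0.245, limma, adjusted p = 0.0697). Ndufa9, which sits at the junction of the arms and whose protein the study blotted, lay at 5.39 and 5.34 in Wt and at 4.51, 5.01 and 4.50 in Smn1ΔSkm, a difference of -0.69 (SE 0.278, limma, adjusted p = 0.104). Its myofibers overlapped: 6 of the 12 Smn1ΔSkm myofibers lay below the lowest Wt myofiber, and 5 Wt myofibers lay below the highest Smn1ΔSkm myofiber. In whole muscle lysates the study reported more NDUFA9 protein in Smn1ΔSkm than in Wt, the reverse direction of this transcript difference. Ndufs8, a core subunit with a pair of iron-sulfur clusters, was the only member of the module above 0, at 0.21 (SE 0.295, adjusted p = 0.629).

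In the proximal membrane arm Ndufs5, Ndufa11 and Ndufa3 fell (33.3% of its 9 members, beside 13.9% of all genes called lower). The median over the 9 members was -0.87, against -0.52 in the N module, -0.57 in the Q module and -0.57 in the distal arm. Ndufs5, a small subunit on the intermembrane-space face, had the widest difference of all subunits. It lay at 4.43 and 4.82 in the Wt mice and at 3.24, 3.02 and 2.94 in the Smn1ΔSkm mice. The difference was -1.56 (SE 0.274, limma, adjusted p = 0.0123), or 2.94-fold lower. The 7 Wt myofibers with a value lay between 3.63 and 5.45 with a median of 4.66, and the 12 Smn1ΔSkm myofibers between 2.43 and 3.58 with a median of 3.15. The groups thus did not overlap for this gene, a separation that was not counted over all genes. Ndufa11, a membrane subunit, lay at 5.46 and 5.57 in Wt and at 4.12, 4.18 and 4.24 in Smn1ΔSkm, a difference of -1.34 (SE 0.260, limma, adjusted p = 0.0152). Of its Smn1ΔSkm myofibers 11 of 12 lay below the lowest Wt myofiber. RefSeq lists a further gene, Ndufa11b, on the array as Gm4943, with a difference of -1.02 (adjusted p = 0.0280), and the probes may not tell the genes apart. Ndufa3 lay at 6.69 and 6.68 in Wt and at 4.99, 5.94 and 5.73 in Smn1ΔSkm, a difference of -1.13 (SE 0.327, limma, adjusted p = 0.0425). Its second probe had values on 2 Wt, 9 Smn1ΔSkm and 2 Smn1ΔSkm+AFS arrays and was not tested.

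The 10 members of the distal membrane arm held 1 call, Ndufb4. It lay at 6.33 and 5.93 in the Wt mice and at 4.42, 5.03 and 4.79 in the Smn1ΔSkm mice, a difference of -1.38 (SE 0.303, limma, adjusted p = 0.0203). On its brightest probe, which stands for the gene, single myofibers overlapped. Smn1ΔSkm values there ran from 3.69 to 5.35 and Wt values from 5.04 to 6.72, with 10 of 12 Smn1ΔSkm values under the Wt range. A second probe gave -1.45 (limma, adjusted p = 0.0157 over all probes, of which 21.5% were called). On that second probe the ranges were apart, with all 12 Smn1ΔSkm values at 3.37 to 4.92 and Wt values at 5.36 to 6.03. The mouse genome holds near-identical copies of Ndufb4 under the names Ndufb4b and Ndufb4c, from which these probes may not tell it apart. Ndufb3, next in the arm, lay at 5.71 and 5.50 in Wt and at 4.96, 4.93 and 4.59 in Smn1ΔSkm, a difference of -0.78 (SE 0.271, limma, adjusted p = 0.0706). Ndufb2 was the member above 0, at 0.07 on its brightest probe, and its other probe lay at -0.57 (adjusted p = 0.155 over all probes). Ndufab1, the mitochondrial acyl carrier protein, which is part of both arms of the complex and also serves fatty acid synthesis, lay at 5.62 and 5.73 in Wt and at 4.50, 4.95 and 4.82 in Smn1ΔSkm. It fell by 0.92 on the log2 scale (SE 0.261, limma, adjusted p = 0.0406).

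Probes of a gene disagreed on the call for Ndufab1 and Ndufb11. For Ndufab1 the brightest probe was called and the other gave -0.67 (adjusted p = 0.103 over all probes). For Ndufb11, a membrane arm subunit encoded on the X chromosome, the brightest probe gave -0.51 (adjusted p = 0.214) and the dimmest of 3 gave -1.24 (SE 0.331, adjusted p = 0.0338 over all probes). The dim probe lay at 1.32 on average in Wt and at 0.08 in Smn1ΔSkm.

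**Figure D2:**
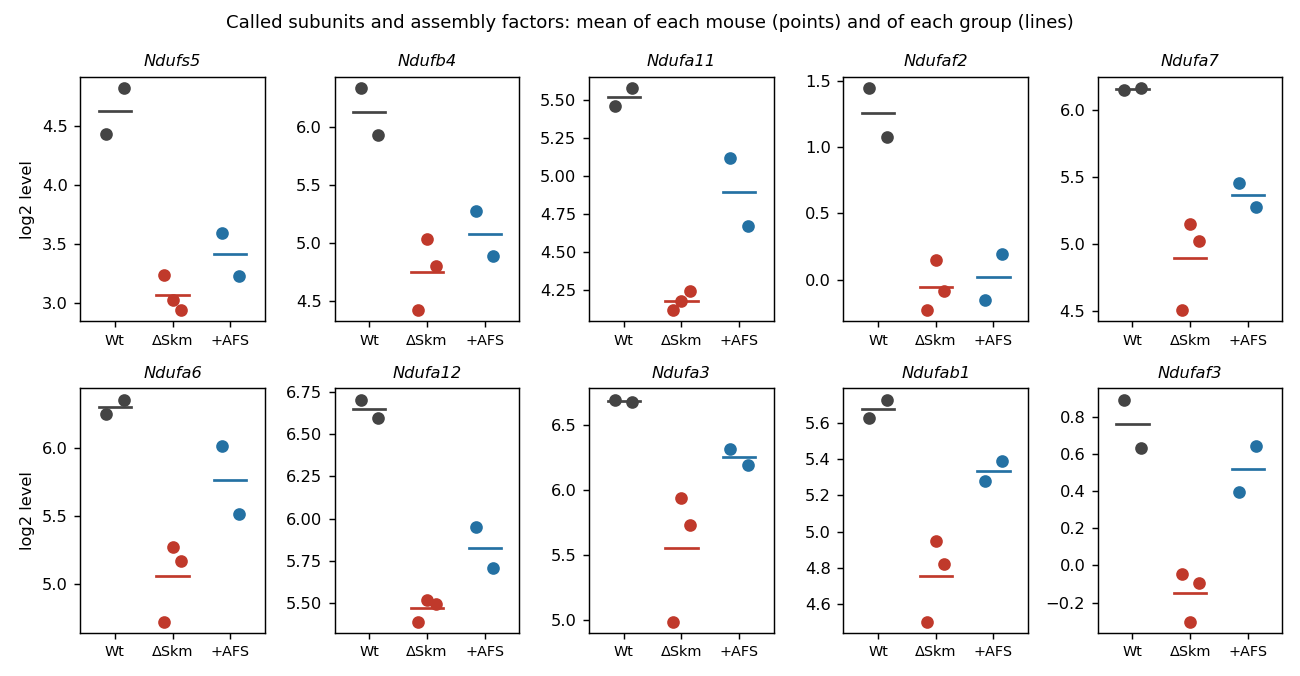
Level of each called subunit and assembly factor (vertical axes, log2 relative to the 75th percentile of the array, a scale of its own in each panel) in Wt, Smn1ΔSkm and Smn1ΔSkm+AFS mice (points, mean of the myofibers of a mouse; lines, group means). In each panel the 3 Smn1ΔSkm mice lie below both Wt mice, and the Smn1ΔSkm+AFS mice lie below both Wt mice in each panel but that of Ndufaf3, where a treated mouse at 0.64 lies just above a Wt mouse at 0.63.

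RefSeq promoter windows, 250 bases before to 50 after a transcription start (mouse, GRCm38.p6), matched 37 of the 42 genes and were searched on both strands for the palindromic motif of NRF1 (nuclear respiratory factor), which reads GCATGC with GC on either side, for its inner GCATGC alone, which every match of the full motif also holds, and for CCGGAAG, an ETS family motif of the kind bound by GABPA. Both factors are known regulators of nuclear genes for the respiratory chain. GCATGC was in 3 of 34 subunit windows (8.82%) and in 7.93% of all 32851 windows, and CCGGAAG in 4 (11.8%) and in 8.86%. The full NRF1 motif was in 1 subunit window (2.94%), that of Ndufa11, and in 0.971% of all windows. The windows of 4 subunits are shown, with the matched letters in capitals: Ndufs5, which had the widest difference and no match, Ndufa11 and Ndufa6, which were called and held a match, and Ndufs8, which lay above 0 and held the ETS letters. They lie at chr4:123718137-123718436 on the minus strand, chr17:56717512-56717811 on the plus strand, chr15:82354242-82354541 on the minus strand and chr19:3912725-3913024 on the minus strand. The NRF1 letters of Ndufa11 begin 60 bases before the start and GCATGC of Ndufa6 begins 83 bases before it. Among subunit windows not shown, GCATGC was also in that of Ndufa8, which was not called. The ETS letters were also in those of Ndufb6, Ndufb7 and Ndufs3, which differed by -0.53, -0.39 and -0.64 and were not called.
Ndufs5: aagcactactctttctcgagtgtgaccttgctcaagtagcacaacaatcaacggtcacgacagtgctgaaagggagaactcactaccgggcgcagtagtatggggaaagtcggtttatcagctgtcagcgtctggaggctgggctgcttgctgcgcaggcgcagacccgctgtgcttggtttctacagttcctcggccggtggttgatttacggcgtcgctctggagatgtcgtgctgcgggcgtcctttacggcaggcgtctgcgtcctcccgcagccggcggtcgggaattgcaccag
Ndufa11: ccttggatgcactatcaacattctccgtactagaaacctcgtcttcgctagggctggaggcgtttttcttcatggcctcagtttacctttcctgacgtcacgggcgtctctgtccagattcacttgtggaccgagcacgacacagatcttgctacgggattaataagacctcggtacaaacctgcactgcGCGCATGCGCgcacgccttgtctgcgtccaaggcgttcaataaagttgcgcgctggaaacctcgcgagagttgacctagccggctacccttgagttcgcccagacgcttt
Ndufa6: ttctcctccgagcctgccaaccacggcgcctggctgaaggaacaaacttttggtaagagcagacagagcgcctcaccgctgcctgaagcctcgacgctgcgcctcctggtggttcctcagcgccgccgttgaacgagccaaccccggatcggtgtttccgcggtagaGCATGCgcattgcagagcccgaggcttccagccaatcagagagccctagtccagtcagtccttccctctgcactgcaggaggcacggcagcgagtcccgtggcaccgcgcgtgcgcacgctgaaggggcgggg
Ndufs8: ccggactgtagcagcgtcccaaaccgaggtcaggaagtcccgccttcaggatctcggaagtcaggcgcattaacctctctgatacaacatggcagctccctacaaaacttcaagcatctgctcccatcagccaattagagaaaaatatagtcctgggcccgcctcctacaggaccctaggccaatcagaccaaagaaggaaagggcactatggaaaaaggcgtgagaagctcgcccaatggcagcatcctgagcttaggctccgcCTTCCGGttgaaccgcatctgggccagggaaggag

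Assembly factors lay lower in Smn1ΔSkm in 4 of 4 genes, with a median difference of -0.85, and 2 were called. Over all genes 54.4% lay lower and 22.0% were called, 13.9% lower. Ndufaf2, the paralog of Ndufa12 that holds its place on the assembling N module, lay at 1.44 and 1.08 in the Wt mice and at -0.23, 0.15 and -0.09 in the Smn1ΔSkm mice. The difference was -1.32 (SE 0.277, limma, adjusted p = 0.0184), and all 12 Smn1ΔSkm myofibers, at -0.50 to 0.53, lay below the lowest of the 8 Wt myofibers, at 0.66 to 1.89. How many of all genes separate so by myofiber was not counted. Ndufaf3, which acts with Ndufaf4 on the early Q module, lay at 0.89 and 0.63 in Wt and at -0.05, -0.30 and -0.10 in Smn1ΔSkm, a difference of -0.91 (SE 0.258, limma, adjusted p = 0.0403). Its myofibers overlapped, with 4 of 12 Smn1ΔSkm myofibers below the lowest Wt myofiber. Ndufaf4 lay at 3.32 and 2.84 in Wt and at 3.07, 1.95 and 1.84 in Smn1ΔSkm, so that a Smn1ΔSkm mouse lay between the Wt mice, and differed by -0.80 (SE 0.412, limma, adjusted p = 0.186). Ndufaf1, part of the assembly complex of the membrane arm, lay at 1.70 and 1.51 in Wt and at 0.41, 1.67 and 0.97 in Smn1ΔSkm, a difference of -0.59 (SE 0.375, limma, adjusted p = 0.274). Under older names that RefSeq lists for Ndufaf5, Ndufaf6, Ndufaf7 and Ndufaf8, which the rule does not take and which were looked up after values were seen, the differences were -0.72, -1.03, 0.47 and -0.75, with 0 of 4 called and adjusted p from 0.0587 to 0.529. Of 7 assembly factors with other names that were tested, 2 fell (28.6%, beside 22.0% of all genes called and 13.9% called lower). Foxred1 fell by 1.97 (SE 0.307, limma, adjusted p = 0.00928), and Nubpl, an iron-sulfur cluster carrier for the complex, differed by -1.01 (SE 0.295, limma, adjusted p = 0.0431).

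Ndufa4, now placed in cytochrome c oxidase, lay at 5.89 and 6.08 in the Wt mice and at 4.88, 5.19 and 4.82 in the Smn1ΔSkm mice, and fell by 1.02 on the log2 scale (SE 0.260, limma, adjusted p = 0.0299). Its paralog Ndufa4l2, a target of hypoxia signalling, was measured on 5 of 8 Wt and 10 of 12 Smn1ΔSkm arrays and differed by 0.65 (SE 0.295, limma, adjusted p = 0.138).

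The count of calls moved as mice were left out, for the subunits and for all genes. A fit with a lone Wt mouse has little power for any gene, so its calls do not show whether the subunits rest on 1 mouse. With either Wt mouse left out, limma called 0 of 36 subunits and 0 of 4 assembly factors (without mouse 1 and without mouse 2, 0 and 4 of all genes, and 3559 and 4553 at an unadjusted p under 0.05), the lone Wt mouse being assumed to vary like the other groups, and the median subunit difference was -0.66 and -0.56. Without Smn1ΔSkm mouse 1, 2 or 3, 14, 4 and 3 subunits were called, beside 7230, 1370 and 1633 of all 16648 genes. With the slide as a random block, the calls were also 0 and 0 (99 of all genes, and 3464 at an unadjusted p under 0.05), with a median of -0.53. The size moved with the scaling of the arrays. With each array centred on its median, the median over all genes moved to 0.10 and that over the subunits to -0.38, and 5 subunits were called. Over all genes that scaling turned the split of calls from 1339 higher and 2317 lower to 1795 higher and 1318 lower. With quantile normalization the subunit median was -0.27, against -0.03 over all genes. Ndufs5 and Ndufa11 were the 2 called, beside 2758 of all genes. The median difference lay below 0, and below that of all genes, under each of the 5 scalings shown.

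**Figure D3:**
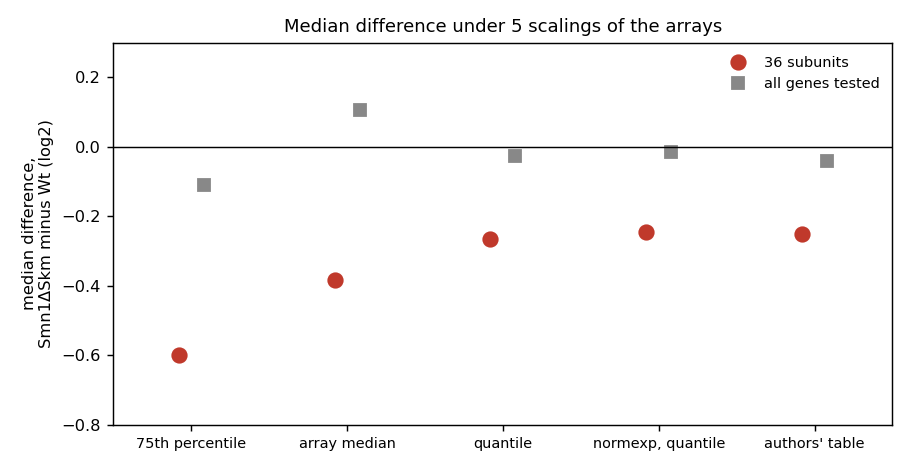
Median difference between Smn1ΔSkm and Wt (vertical axis, log2) over the 36 subunits (circles) and over all genes tested (squares) under 5 scalings of the arrays (horizontal axis; the last is the authors' own table). The subunit median runs from -0.60 to -0.25 and lies below that of all genes at each scaling.

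Single myofibers were compared by the median over the 36 subunits of the difference from the Wt mean of each gene. The 8 Wt myofibers lay between -0.51 and 0.25 with a median of 0.06, the 12 Smn1ΔSkm myofibers between -1.53 and -0.05 with a median of -0.56, and the 7 Smn1ΔSkm+AFS myofibers between -0.43 and 0.63 with a median of -0.21. The groups overlapped. The lowest Wt myofiber, the last of Wt mouse 2, also had the most probes with values in its group (34012, against 23871 to 27329 in the other 7). Without it the median subunit difference between Smn1ΔSkm and Wt was -0.71 and 12 subunits were called, beside 4414 of all 16648 genes. By mouse, the medians were -0.75, -0.55 and -0.71 in Smn1ΔSkm, and 0.02 and -0.23 in Smn1ΔSkm+AFS.

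**Figure D4:**
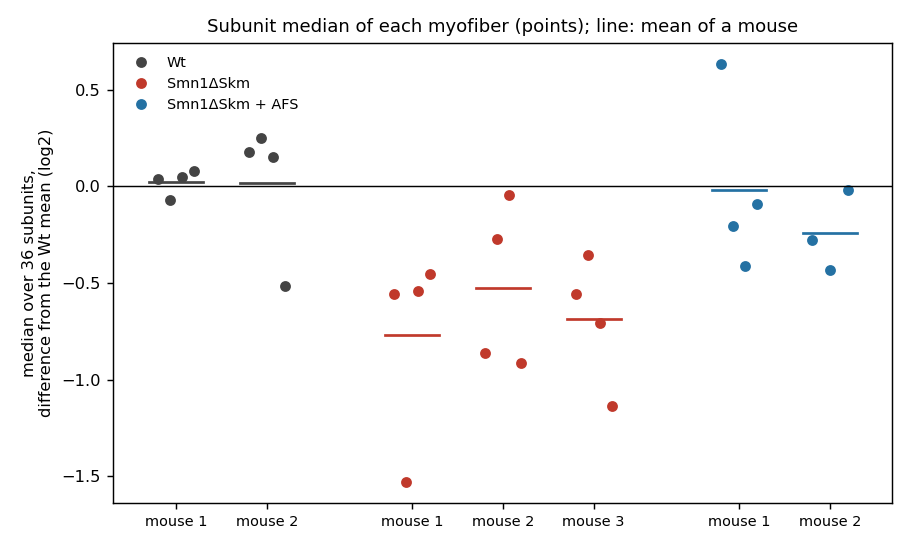
Median over the 36 subunits of the difference from the Wt mean (vertical axis, log2) for each myofiber (points), by mouse (horizontal axis), with the mean of the points of a mouse as a line. The Smn1ΔSkm myofibers run from -1.53 to -0.05, and the lowest Wt myofiber (-0.51) and the highest Smn1ΔSkm+AFS myofiber (0.63) stand apart from the rest of their groups.

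After AFS cell injection, every one of the 36 subunits lay higher than in untreated Smn1ΔSkm mice, by 0.30 to 0.74 with a median of 0.53, but 0 were called. Of all 16648 genes 0 were called in limma (0.0%), 42.7% lay lower, and the median difference was 0.06. At an unadjusted p under 0.05, 11 subunits and 3.2% of all genes passed. With single myofibers as replicates in limma, 20 genes were called and again 0 subunits. Both treated mice lay above all 3 untreated mice for 29 subunits, an ordering shown by 12.4% of all genes. The widest differences were those of the core subunit Ndufs1 (0.74), Ndufb10 (0.72), Ndufa11 (0.71), Ndufa9 (0.71) and Ndufa10 (0.71), named here for their size in this comparison. Ndufa9 lay at 5.24 and 5.53 in the treated mice, above the untreated mice at 4.50 to 5.01, and differed by 0.71 (SE 0.278, limma, adjusted p = 0.9997). Ndufa11 lay at 5.11 and 4.67 in the treated mice, above the untreated ones at 4.12 to 4.24 (difference 0.71, SE 0.260). Of the assembly factors, Ndufaf1 differed by 0.78 and Ndufaf3 by 0.67, whereas Ndufaf2 differed by 0.07 and Ndufaf4 by -0.12, and 0 of 4 were called.

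**Figure D5:**
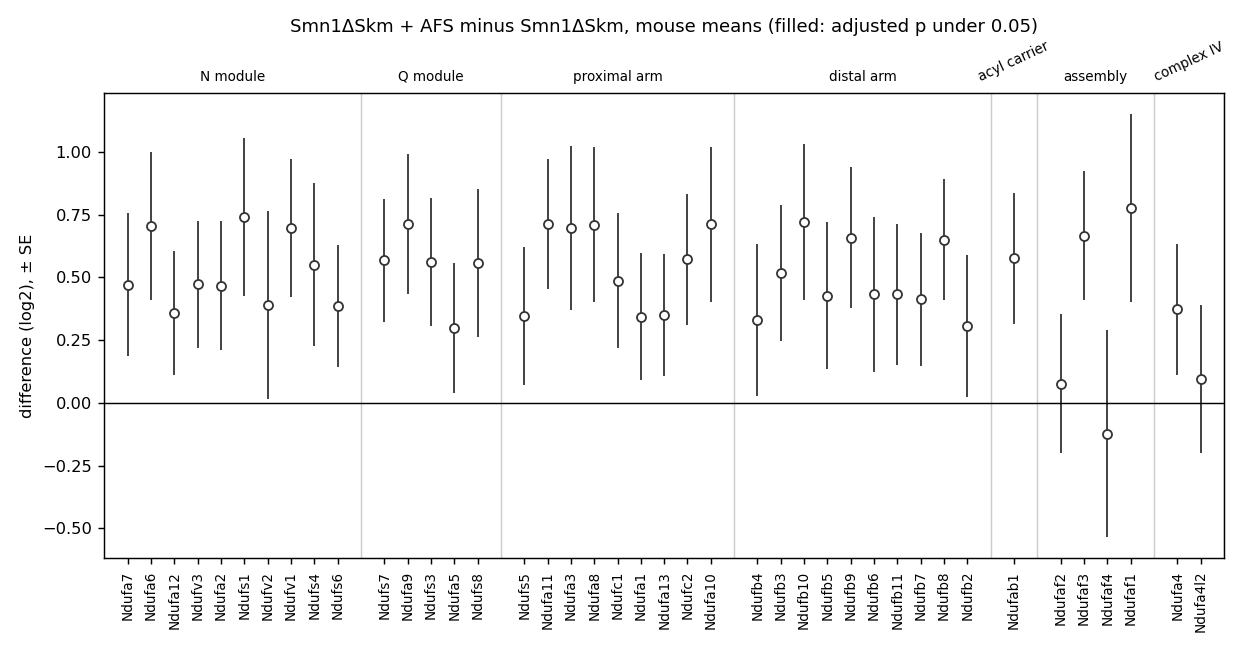
Difference of each gene between Smn1ΔSkm+AFS and untreated Smn1ΔSkm mice (vertical axis, log2, points with standard errors from limma, means of 2 and 3 mice), in the same order of genes as for Smn1ΔSkm against Wt. All 35 subunits drawn lie above 0, from 0.30 to 0.74, Ndufaf4 lies at -0.12, and no point is filled because 0 genes were called.

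Treated and untreated mice were both on arrays of scan days 1 and 2, but on different slides: Smn1ΔSkm on slides 1, 3 and 4 and Smn1ΔSkm+AFS on slides 2, 3 and 5, so that slide and treatment can hardly be told apart. On slide 3, which they shared with 1 myofiber each, the subunit medians relative to Wt were -0.45 untreated and -0.09 treated. The correlation of values within a slide was 0.639 in limma, and with the slide as a random block the median subunit difference was 0.47 with 0 called. Within scan day 1, which holds 3 myofibers of Smn1ΔSkm mouse 1 and 2 of Smn1ΔSkm+AFS mouse 1 and so allows no test, the median subunit difference was 0.47 and 35 of 36 subunits lay higher. Over all genes the median there was 0.21. Within scan day 2 the medians were 0.59 over the subunits, all 36 higher, and 0.06 over all genes, with 0 called, and with the scan day as a block in limma the subunit median was 0.57 with 0 called. The highest treated myofiber, the first of Smn1ΔSkm+AFS mouse 1, lay at 0.63 in subunit median while the next lay at -0.02. Without it the median difference was 0.43 with all 36 subunits higher. With quantile normalization it was 0.28, with 35 of 36 higher.

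Between Smn1ΔSkm+AFS and Wt mice, which share their Wt and treated samples with the comparisons above, the subunits had a median difference of -0.11, 22 of 36 lay lower (51.9% of all genes), and 1 was called where 7.77% of all genes were called. The called subunit was Ndufs5, at 3.59 and 3.23 in the treated mice against 4.43 and 4.82 in Wt, a difference of -1.21 (SE 0.300, limma, adjusted p = 0.0479). Ndufb4, with -1.05 (SE 0.332, adjusted p = 0.0839), and Ndufa12, with -0.82 (SE 0.271, adjusted p = 0.0925), were next. Of the assembly factors Ndufaf2 was called. It lay at -0.16 and 0.19 in the treated mice against 1.44 and 1.08 in Wt, a difference of -1.24 (SE 0.304, limma, adjusted p = 0.0468), and all 7 treated myofibers, at -0.88 to 0.63, lay below the lowest Wt myofiber. Ndufs8 had the widest difference in the other direction, 0.76 (SE 0.324, adjusted p = 0.159). The Ndufs5 call was lost without any 1 of the 7 mice except Smn1ΔSkm mouse 1, without which 4 subunits were called, on quantile normalization and with the slide as a random block. Over all genes, 4839 were called in this comparison without Smn1ΔSkm mouse 1, beside 1293 with all mice. The sign of the subunit median was not settled: it was 0.02 without Smn1ΔSkm+AFS mouse 2 and 0.02 with the arrays centred on their medians.

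Other genes of the respiratory chain lay lower in Smn1ΔSkm as well. Of the 5 mitochondrially encoded complex I genes tested (ND1, ND3, ND4L, ND5 and ND6), 4 fell in Smn1ΔSkm (13.9% of all genes did), with a median of -0.96 over the 5. ND6 lay at 7.98 and 7.98 in the Wt mice and at 6.69, 7.10 and 7.04 in the Smn1ΔSkm mice (difference -1.04, SE 0.260, limma, adjusted p = 0.0286), ND4L differed by -0.98 and ND1 by -0.96. Of 38 genes of complexes II to V, 9 fell and 0 rose (23.7%). Over all genes 22.0% were called, 13.9% lower. Of the 38, 36 lay below 0, and the median was -0.61. Cox6b1 of complex IV differed by -1.27 (SE 0.280, adjusted p = 0.0207), Atp5c1 of complex V by -1.13 (SE 0.330, adjusted p = 0.0441) and Sdhb of complex II by -1.09 (SE 0.265, adjusted p = 0.0258). In treated against untreated mice the medians were 0.55 for the mitochondrially encoded genes and 0.49 for complexes II to V, with 0 of 5 and 0 of 38 called.

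Marker genes of the fiber and of other cells were set beside these values. Of 8 myofiber markers, 3 fell in Smn1ΔSkm (37.5%, beside 13.9% of all genes), with differences of -1.99 for Mylpf, -1.76 for Ckm, the muscle creatine kinase, and -1.14 for Actn3 (limma, adjusted p = 0.0160, 0.0214 and 0.0306), with a median of -0.91 over the 8. Their summed signal lay at 10.6 to 11.2 per Wt myofiber, 9.83 to 10.6 per Smn1ΔSkm myofiber and 10.4 to 10.8 per Smn1ΔSkm+AFS myofiber on the log2 scale. Of 3 fiber type myosins tested, Myh1, the IIx myosin, rose by 2.20 (SE 0.505, adjusted p = 0.0224) and lay at 2.41 and 1.00 in the Wt mice, at 3.24, 4.14 and 4.34 in the Smn1ΔSkm mice and at 5.54 and 4.77 in the treated mice. Myh4, the IIb myosin, differed by -0.42 (adjusted p = 0.233), and the IIa myosin gene Myh2 was above background in 0 of 8 Wt, 3 of 12 Smn1ΔSkm and 2 of 7 treated myofibers. Of 5 macrophage and leukocyte markers tested, 2 rose (8.04% of all genes did), Cd68 by 2.99 (SE 0.821, limma, adjusted p = 0.0368) and Ptprc by 1.33 (SE 0.299, limma, adjusted p = 0.0213). Called or not, 3 of the 5 lay higher and 2 lower, the lowest at -0.50. The summed signal of that list overlapped between the groups, at 7.63 to 8.30, 7.56 to 8.02 and 7.85 to 8.29, but it is carried by Itgam, at 7.62 to 7.96 in the 7 mice, and does not follow Cd68 or Ptprc. Of the other lists, satellite, endothelial and adipocyte cells each had 1 tested gene that fell (of 3, 3 and 1), and fibroblasts, Schwann cells and erythrocytes had 0 called of 2, 2 and 1. The fibroblast gene Dcn was above background in 1 of 8 Wt, 12 of 12 Smn1ΔSkm and 5 of 7 treated myofibers, and the summed signal of that list overlapped between the groups, at -0.80 to 5.99, 0.32 to 4.78 and 0.83 to 3.81. Pax7, which defines satellite cells, was above background in 1 of 8, 1 of 12 and 1 of 7 myofibers. A lower share of RNA from a cell type and less RNA per cell cannot be told apart in these arrays, and the part of fiber type, fiber RNA and other cells in the differences of the subunits was not tested.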

How the data were processed

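Single myofibers were profiled on 27 1-colour Agilent mouse arrays with probes of 60 bases placed on the mm9 build. The intensity values used are those the authors deposited as scanner output of Agilent Feature Extraction 10.7.3.1, per the file headers background-subtracted and detrended within each array with no scaling from array to array. The table of values by the authors, a linear intensity set to like distributions across arrays, served as an alternative. A spot counted as a value when found, uniform and well above background. From the intensities, log2 values minus the 75th percentile of each array were computed. Probes with values on 75% of the arrays were kept (22169 probes, 16648 genes), and the brightest probe stood for its gene. Myofibers were averaged by mouse, and the 7 mouse means were fitted in 1 model with limma 3.58.1 (R 4.3.3, Python 3.11.15), with Benjamini-Hochberg adjustment over all genes. The fit was tested on simulated data. With 2, 3 and 2 mice in the groups, p-values rest on the spread between few animals. Alternatives changed the scaling, background correction, filter, probe choice, unit of replication, slide and scan day, and left out mice in turn. The members and lists were chosen with earlier results of these data known. In each list the called members with the widest differences were named, up to 4, or the widest 2 where fewer than 2 were called, with every Ndufaf factor, Ndufa9, Ndufa4, Ndufa4l2 and genes whose probes disagreed. The values of 1 subunit enter the counts and medians and are not reported here on their own.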

Additional observations from a re-analysis of the deposited data

Results flagged for a closer look

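Within the groups of myofibers, 39 sets of values over 19 items (the named genes and the subunit median) were screened for a highest or lowest myofiber far from the next, a screen that chance alone trips in about 5% of sets, and 5 sets tripped it. All 5 belonged to 2 myofibers. The screen took sets of at most 10 values, so the Smn1ΔSkm group of 12 myofibers was screened for Ndufa4l2 alone. The lowest subunit median of that group, -1.53, was not screened. The last myofiber of Wt mouse 2 had a subunit median of -0.51 where the next lowest Wt myofiber lay at -0.07, and an Ndufb11 level of 5.98 where the next lay at 6.39. The first myofiber of Smn1ΔSkm+AFS mouse 1 had a subunit median of 0.63 where the next highest lay at -0.02, an Ndufa6 level of 6.68 against 5.90 and an Ndufb11 level of 7.24 against 6.43. Without the Wt myofiber, chosen for omission after seeing the data, limma called 12 subunits and 4414 of all genes between Smn1ΔSkm and Wt. The median subunit difference was then -0.71. Without the Smn1ΔSkm+AFS myofiber, also chosen after seeing the data, the median difference between treated and untreated mice was 0.43, with 0 called. Why these myofibers stand apart was not tested.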

How the results depend on the processing

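Between Smn1ΔSkm and Wt, 8 subunits and 2 assembly factors were called and the subunit median was -0.60. The subunit calls were 16 at an unadjusted p under 0.05, 5 with arrays centred on their median, 2 with the authors' table, 2 with quantile normalization, 2 with normexp and quantile normalization, 25 with myofibers as replicates, 13 with the mouse as a random block and 0 with the slide as a random block. Over all genes the counts in that order were 6565, 3113, 3004, 2758, 2586, 9081, 5908 and 99, beside 3656 called in the main fit. Leaving out each mouse in turn gave 0 to 14 subunit calls, 0 to 3 assembly factor calls and medians from -0.69 to -0.56. The assembly factor calls were 1 with centred arrays, with the authors' table, with quantile normalization, with normexp and quantile normalization and with no filter, 0 with the slide as a random block, and 1 without the arrays of scan day 1 or without the first Smn1ΔSkm+AFS myofiber, both chosen after seeing the data. The median was -0.38 with centred arrays, -0.25 with the authors' table, -0.27 with quantile normalization and -0.25 with normexp and quantile normalization, and it lay below that of all genes by 0.49, 0.21, 0.24 and 0.23. Between treated and untreated mice, 0 subunits were called under each adjusted alternative and 11 at an unadjusted p under 0.05. Its median of 0.53 became 0.28 with the authors' table, 0.28 with quantile normalization and 0.26 with normexp and quantile normalization, and ran from 0.38 to 0.63 as mice were left out. Between Smn1ΔSkm+AFS and Wt, the 1 subunit call became 5 at an unadjusted p under 0.05, 5 with myofibers as replicates and 3 with the mouse as a random block. Over all genes those counts were 4942, 6937 and 3393. The subunit count was 0 with centred arrays, the authors' table, quantile normalization, every probe on its own, no filter, values on every array, the slide as a random block, or without the arrays of scan day 1. It ran from 0 to 4 as mice were left out. The median of -0.11 turned to 0.0165 with centred arrays and 0.0131 without the arrays of scan day 1, and ran from -0.23 to 0.0188 as mice were left out. Of 412 values of the 18 named genes under the alternatives, 299 kept direction and side of the threshold, 99 lost the call, 14 gained it and 0 turned direction. The 412 include genes not called in the main fit, which could not lose a call. Among those called there, Ndufab1 and Ndufaf3 each lost the call in 16 of 23 alternatives and Ndufa3 in 13 of 23. Ndufs5 lost it in 3 of 22, the fewest. The causes were not tested.

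The numbers of the mice in the labels are not stated to mark a litter or day. Deviations of same-numbered mice correlated at -0.06 to 0.31. These correlations cannot decide whether such mice share more than a number, because the deviations mirror each other in a group of 2 mice. Smn1ΔSkm mouse 1 and Smn1ΔSkm+AFS mouse 1 both had arrays of scan day 1 and an array on slide 3. With the replicate block, 5 subunits and 1 assembly factor were called between Smn1ΔSkm and Wt and 0 subunits between Smn1ΔSkm+AFS and Wt. Over all genes that fit called 2377 and 939. The number of mice, 2 in a group at the least, limits the precision.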
